A study of Schizosaccharomyces pombe with 4 samples.

Results

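The genes described here are the transfer RNA (tRNA) genes on the chromosome arms of fission yeast, Schizosaccharomyces pombe, at which the signal of the recombination protein Rad52 was read on tiling arrays. They are the genes that the reference genome ASM294v3 annotates as tRNA on chromosome I below 3703000, on chromosome II outside 1552000 to 1694000 and on chromosome III outside 1020000 to 1187000. Each was taken with 250 bp on either side and needed at least 1 probe midpoint in that window. All 105 such genes, of 171 tRNA genes on the 3 chromosomes, had a probe. Of the rest, 48 lie in the centromere spans of chromosomes II and III, and 18 lie on chromosome I at or beyond 3703000, where array and reference coordinates did not match, and were not analysed here.

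tRNA genes are short and are transcribed by RNA polymerase III, whose factor TFIIIC binds promoter elements inside the gene, the A box and the B box. In yeasts such genes are known as places where replication forks slow, since the polymerase machinery sits on the DNA that the fork has to pass. Rad52 is a recombination protein that acts on single-stranded DNA and is used as a mark of forks or breaks under repair.

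Chromatin immunoprecipitation (ChIP) of Rad52 was hybridised against input DNA, with 2 arrays for each of 2 strains. One strain was cdc25-22 rif1Δ, called rif1Δ below, and the other cdc25-22 rif1Δ rad3Δ, called rif1Δ rad3Δ. Rif1 restrains replication origins, and Rad3 is the checkpoint kinase that answers stalled forks. Both strains therefore lack Rif1 and carry cdc25-22, a temperature-sensitive allele of the phosphatase that starts mitosis, and no strain with Rif1 was measured here. Per the labels, cells grew in EMM6S, were blocked for 4 h at 36.5 °C, were released at 25 °C and received 6 mM hydroxyurea (HU), which lowers nucleotide pools. The labels do not state whether the 2 arrays of a strain came from separate cultures. The p-values therefore reflect array-to-array spread that could be purely technical. The sources used here describe no ChIP from cells without Rad52, so enrichment without the protein cannot be told apart from Rad52. The sample labels put ChIP in the Cy3 channel on every array, and the ratios follow them, although the series text speaks of reciprocal labelling. Over the tiles every pair of arrays correlated above 0, at r from 0.27 to 0.80.

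Median ChIP signals of the arrays were 390 to 1115 and median input signals 573 to 2145. Replicate 2 of rif1Δ rad3Δ had the lowest of both. Its noise between neighbouring probes (derivative log ratio spread, from the header) was 0.452, against 0.311 to 0.321 elsewhere, and its scan was extracted with a protocol for ChIP, not for CGH like the others. Replicate 1 of both strains shared a slide. The signal over rif1 was 0.867% to 3.48% of an array's median, over both channels and all arrays, and that over rad3 was 0.972% to 6.11% in the double mutant. The labels give the input of the rif1Δ rad3Δ arrays as cdc25-22, and these probes go against that. The molecule is labelled as total RNA, whereas the channels are labelled as input and IP.

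The 105 genes have 59 distinct sequences, and 70 of them belong to 24 families of 2 or more genes with identical sequence. The sequences below belong to the genes on which the results turn: the highest in rif1Δ, the 2 highest in rif1Δ rad3Δ, and those that differed between the strains. They were read from ASM294v3, 5′ to 3′ on the gene's own strand, and capitals mark the core of the B box, searched as GTTCGANNC.
SPCTRNAGLN.06: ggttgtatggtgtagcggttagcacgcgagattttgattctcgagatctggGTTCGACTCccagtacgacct
SPATRNACYS.01: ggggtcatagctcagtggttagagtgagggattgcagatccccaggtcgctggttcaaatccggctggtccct
SPBTRNAMET.06: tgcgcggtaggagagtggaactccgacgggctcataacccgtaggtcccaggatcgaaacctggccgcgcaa
SPBTRNAPRO.04: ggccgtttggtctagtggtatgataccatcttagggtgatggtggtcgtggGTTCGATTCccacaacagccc
SPATRNASER.02: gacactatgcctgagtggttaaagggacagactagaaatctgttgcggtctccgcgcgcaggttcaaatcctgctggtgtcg
SPATRNAILE.01: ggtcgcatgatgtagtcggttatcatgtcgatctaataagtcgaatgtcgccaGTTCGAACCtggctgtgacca
SPBTRNAPHE.03: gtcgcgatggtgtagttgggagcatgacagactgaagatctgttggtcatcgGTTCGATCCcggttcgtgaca
They lie at III:2074991-2075062 (minus strand), I:1421149-1421221 (plus), II:2434303-2434374 (minus), II:1825787-1825858 (minus), I:3047677-3047758 (minus), I:1772296-1772369 (plus) and II:2576376-2576448 (minus). The core is absent from the printed cysteine, methionine and serine genes, which says only that these letters are not in them. It was found on the gene's own strand in 80 of the 105 genes. Searched on both strands of the gene with 250 bp on either side, it was found in 80 windows (76.2%), against 2.62% of 16614 tiles of 600 bp. Genes with the core had a median level of 0.53 in rif1Δ and 0.32 in rif1Δ rad3Δ, and the 25 without it 0.49 and 0.28.

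The windows held 217 probes: 10 genes had 1 probe, 70 had 2 and 25 had 3. Where windows overlapped, genes shared probes, so the 105 windows form 99 separate loci. A probe touched the gene itself at 55 genes, but a probe midpoint lay inside the gene at only 2, so the values mostly describe the sequence that flanks each gene. The probes of 0 genes shared a stretch of 40 bases with another place in the genome, so identical genes were read through different probes. A probe not well above background was present in 29 windows. Levels are log2 of ChIP over input, with each array centred on its median, so that 0 is the array median.

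In rif1Δ, 101 of the 105 tRNA genes had a mean level above 0, and the median gene stood at 0.53, or 1.44-fold. Of the 16614 tiles, 7847 had a mean above 0. Of the 105, 30 were called above the array median (limma, Benjamini-Hochberg adjusted p below 0.05) and 0 below it. Of all 16719 windows tested, tRNA genes and tiles together, 2.85% were called above and 0.634% below. At an unadjusted p below 0.05, 76 tRNA genes were above (10.8% of windows) and 0 below (9.29%). The median over genes was 0.55 on replicate 1 and 0.52 on replicate 2, where the tiles had -0.01 and -0.02. Both arrays were above 0 at 96 genes, or 91.4%, against 31.4% of windows. The count of 30 was 17 without replicate 1 of rif1Δ, where 2.64% of windows were called above.

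In rif1Δ rad3Δ, the median tRNA gene stood at 0.32, or 1.24-fold. A mean above 0 was seen in 8322 of 16614 tiles and in 83 of the 105 genes. Here 46 were called above and 4 below the array median, but in this strain 21.0% of all windows were called above and 19.7% below. The median over genes was 0.49 on replicate 1 and 0.25 on replicate 2, so these medians lay farther apart than those of rif1Δ. The count of 46 was 24 without replicate 1 of this strain (13.0% of windows) and 25 after normexp background correction (12.4%). Both arrays were above 0 at 71 genes, or 67.6%, against 40.2% of windows.

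**Figure D1:**
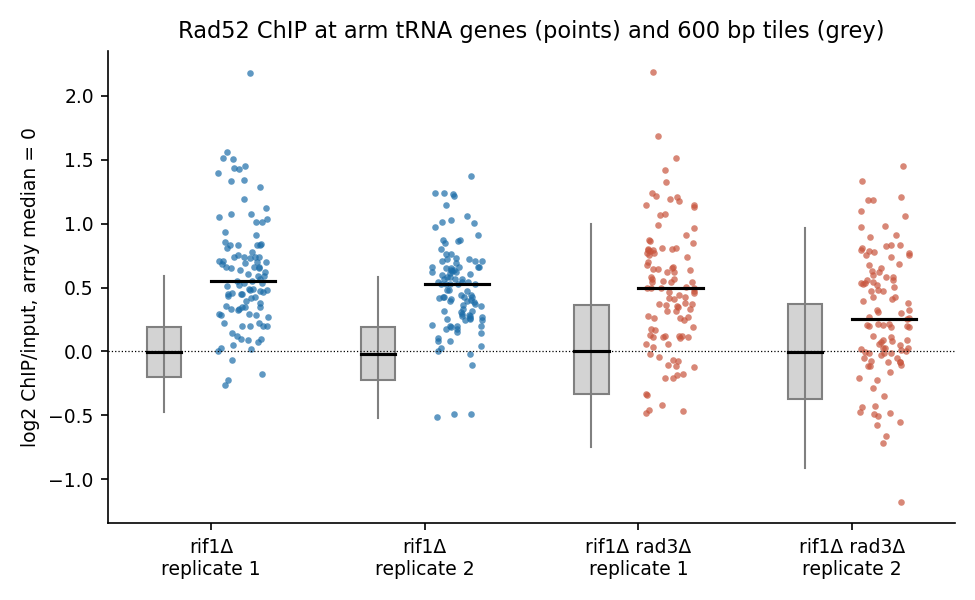
Level of each of the 105 arm tRNA genes (points) on each array, as log2 ChIP over input with the array median at 0. Grey boxes show the quartiles, whiskers the middle 90% and black bars the medians of the 16614 tiles; black bars over the points are the gene medians, 0.55, 0.52, 0.49 and 0.25.

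The channels behind these ratios were read separately. In the gene windows, the median input signal lay below the array median on every array, with log2 values of -0.66 and -0.46 for rif1Δ and of -0.70 and -0.49 for rif1Δ rad3Δ. The median ChIP signal in the same windows was -0.08, 0.03, -0.11 and -0.24. A raised ratio at the median tRNA gene thus went with a low input signal and a ChIP signal near the array median. With the A+T trend of the surrounding 500 bp removed from each channel, the input medians were -0.59, -0.36, -0.53 and -0.37 and the ChIP medians 0.08, 0.16, -0.14 and -0.27. Gene windows held a median of 68.0% A+T, against 63.8% in tiles. Of the 30 genes called above in rif1Δ, 16 had a ChIP signal above the array median on both arrays and 20 an input signal below it on both. Over all 105 genes these counts were 45 and 69, so the called genes had a low input in 66.7% of cases and all genes in 65.7%. Of the 46 called in rif1Δ rad3Δ, 19 had the high ChIP signal and 33 the low input, against 37 and 68 of all 105. The part of the low input in the levels was not tested.

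The highest gene in rif1Δ was SPCTRNAGLN.06, a glutamine tRNA gene beside SPCPB1C11.02, whose arrays read 2.18 and 1.37. Its mean was 1.77 ± 0.57 (SD, n = 2), or 3.42-fold, with limma's adjusted p = 0.00116. In rif1Δ rad3Δ it read 1.69 and 1.45, the second highest gene of that strain, so the 2 strains overlapped there. One of its 2 probes was not well above background on replicate 1 of rif1Δ, and with only probes well above background its means were 1.90 in rif1Δ and 1.97 in rif1Δ rad3Δ. It stood only 0.14 above its own flanks, the probes between 1 and 3 kb from the window, so its surroundings were raised as well. These flanks include the serine tRNA gene SPCTRNASER.13 (III:2072080-2072174), itself among the 8 highest genes of both strains. The next was SPATRNAMET.02, a methionine tRNA gene, with 1.44 and 1.23 in rif1Δ and 0.79 and 1.10 in rif1Δ rad3Δ.

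The histidine tRNA gene SPBTRNAHIS.02 read 1.56 and 1.01 in rif1Δ, and the isoleucine tRNA gene SPATRNAILE.01 read 1.08 and 1.22. The other genes among the 8 highest of rif1Δ were 3 asparagine tRNA genes, SPBTRNAASN.04, SPCTRNAASN.06 and SPBTRNAASN.02, with means of 1.10, 1.08 and 1.08, and the serine tRNA gene SPCTRNASER.13 with 1.08. All 8 passed the test in rif1Δ, at adjusted p of 0.00116 to 0.0311. The lowest of the strain were SPATRNAVAL.02 at -0.12, SPATRNAGLY.02 at -0.03 and SPBTRNALEU.08 at -0.01, which did not pass.

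The highest gene in rif1Δ rad3Δ was SPATRNACYS.01, a cysteine tRNA gene, whose arrays read 2.19 and 1.33, with a mean of 1.76 ± 0.60 (SD, n = 2), or 3.38-fold (limma's adjusted p = 0.0009). Its window holds 1 probe, which was not well above background on 1 array of each strain. Its ChIP and input signals both lay below the array median on every array, as given below. After SPCTRNAGLN.06 came SPBTRNAMET.06, an initiator methionine tRNA gene, at 1.27, SPCTRNASER.07 at 1.16 and SPATRNAGLU.02 at 1.15. SPATRNACYS.03, SPCTRNASER.13 and SPATRNAILE.02 followed with 1.06, 1.06 and 1.05. In this strain the ChIP signal of SPATRNAGLU.02 was -1.33 and -1.79 against the array median, and its input -2.83 and -2.55. The lowest were SPBTRNAPRO.04 at -0.54, SPBTRNAARG.04 at -0.53 and SPBTRNAPHE.03 at -0.52. SPBTRNAARG.04 did not pass, since its arrays read 0.12 and -1.18, whereas the other 2 did.

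The same 24 genes were called above in both strains (1.81% of windows). A further 6 were called in rif1Δ and not in rif1Δ rad3Δ (1.04% of windows), 22 in rif1Δ rad3Δ and not in rif1Δ (19.2%), and 53 in neither (77.9%). A call in 1 strain and not in the other is not a difference between them, which has its own test below. Over the 105 genes, the arrays of rif1Δ correlated at r = 0.45 and those of rif1Δ rad3Δ at 0.73. The arrays of different strains that share a slide correlated at 0.62, and the strain means at 0.55. These are descriptions across genes, which share array, probe composition and, in part, sequence.

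Against their own flanks, the tRNA genes of rif1Δ stood 0.51 higher at the median. A value above 0 was seen at 97 of 105 genes and at 8038 of 16489 tiles. Of the 105 genes, 20 were called above their flanks (0.934% of windows) and 0 below (0.434%). In rif1Δ rad3Δ the median was 0.23, with 19 called above (11.6% of windows) and 1 below (11.5%). SPATRNAILE.01 rose farthest over its flanks in rif1Δ, by 1.43, followed by SPBTRNAASN.04 with 1.08 and SPBTRNAHIS.02 with 1.04. In rif1Δ rad3Δ the largest were SPATRNACYS.01 with 1.61, SPBTRNAMET.06 with 1.10 and SPATRNAGLU.02 with 1.06. The rif1Δ count was 4 with margins of 500 bp (0.806% of windows) and 10 without replicate 1 of rif1Δ (1.11%), and the rif1Δ rad3Δ count was 8 without replicate 2 of that strain (3.01%).

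The profile around the genes showed how far the signal reached. In the first 250 bp upstream of the gene, the mean level was 0.75 and 0.53 on the rif1Δ arrays and 0.64 and 0.37 on the rif1Δ rad3Δ arrays. In the first 250 bp downstream it was 0.45 and 0.43 in rif1Δ and 0.35 and 0.19 in rif1Δ rad3Δ. The ratio of every array was thus higher on the upstream side, which the ChIP channel, given below, was not. Between 500 and 750 bp upstream, rif1Δ had dropped to 0.21 and 0.08, whereas rif1Δ rad3Δ still had 0.59 and 0.36. Neighbouring genes can share probes, so these bins are not independent, and they carry no test.

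The channels differed along the same profile. In the first 250 bp upstream, the input mean was -0.81 in rif1Δ and -0.87 in rif1Δ rad3Δ, and the ChIP mean -0.20 and -0.38. In the first 250 bp downstream, the input mean was -0.40 and -0.42, and the ChIP mean 0.01 and -0.17. The higher ratio upstream thus went with a lower input there, and the ChIP mean was lower upstream than downstream in both strains. Between 500 and 750 bp upstream the input mean was -0.17 in both strains, while the ChIP mean was -0.05 in rif1Δ and 0.29 in rif1Δ rad3Δ. Probes held 66.7% A+T in the first upstream bin and 64.7% in the one at 500 to 750 bp.

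**Figure D2:**
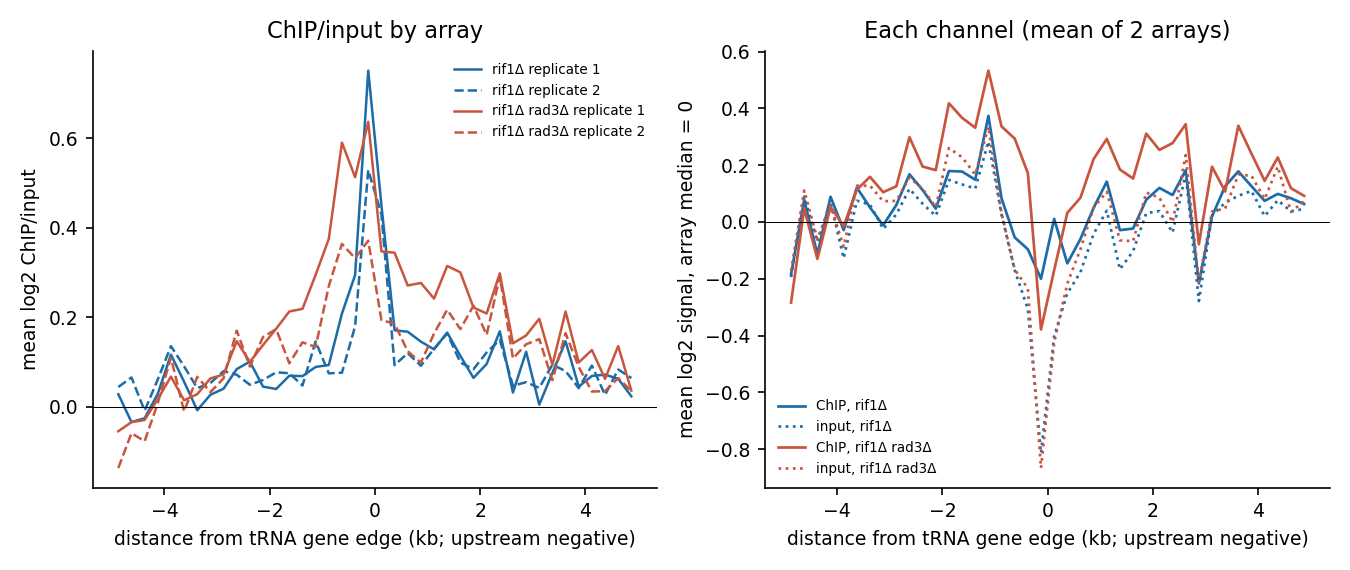
Mean signal in bins of 250 bp up to 5 kb from the edges of the tRNA genes, upstream to the left in the direction of transcription. The left panel shows log2 ChIP over input for each array and the right panel each channel with the array median at 0: every array is highest in the first upstream bin, where the input channel falls to -0.81 and -0.87.

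Between the strains, the median tRNA gene was lower in rif1Δ rad3Δ by -0.23, and 76 of 105 genes had a lower mean. By the test of the difference, 2 genes were higher in rif1Δ rad3Δ (5.62% of windows) and 4 were lower (2.92% of windows). At an unadjusted p below 0.05 these counts were 6 (15.5% of windows) and 20 (13.7%). The arrays of the strains did not overlap at 42 genes that were lower (30.5% of windows) and at 11 that were higher (29.6% of windows). With 2 arrays a strain, the smallest p of an exact permutation test is 0.333. Within the shared slide the median difference was -0.14 and between the replicate 2 arrays -0.27. Without replicate 2 of rif1Δ rad3Δ the median difference was -0.09 and 0 genes were called lower. With margins of 500 bp it was -0.05.

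SPATRNACYS.01 was higher in rif1Δ rad3Δ. It read 0.91 and 0.08 in rif1Δ and 2.19 and 1.33 in rif1Δ rad3Δ, a difference of 1.26 ± 0.33 (SE) with limma's adjusted p = 0.0476. The difference was 1.27 within the shared slide and 1.25 between the replicate 2 arrays. Its ChIP signal lay below the array median on every array, at -2.88 and -1.31 in rif1Δ and -1.57 and -0.27 in rif1Δ rad3Δ. Its input lay lower still, at -3.78 and -1.35 in rif1Δ and -3.74 and -1.58 in rif1Δ rad3Δ. SPBTRNAMET.06 was also higher, with 0.57 and 0.27 in rif1Δ and 1.33 and 1.21 in rif1Δ rad3Δ, a difference of 0.85 ± 0.20 (SE; limma's adjusted p = 0.0377). Its ChIP signal was 0.56 and 0.82 in rif1Δ and 1.54 and 1.76 in rif1Δ rad3Δ, while its input spanned -0.0009 to 0.59. The strains did not overlap at either gene. The call of SPATRNACYS.01 was lost without replicate 2 of rif1Δ or replicate 1 of rif1Δ rad3Δ, and that of SPBTRNAMET.06 when any array except replicate 1 of rif1Δ was left out. Both calls also ended with mode centring, normexp, arrays scaled to one spread or the A+T trend over 500 bp removed, the last chosen after seeing the data. Over the alternative settings, SPATRNACYS.01 was called in 12 of 19 and SPBTRNAMET.06 in 14 of 21.

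The 4 genes that were lower carry proline, serine, isoleucine and phenylalanine tRNAs. SPBTRNAPRO.04 read 0.35 and 0.53 in rif1Δ and -0.42 and -0.66 in rif1Δ rad3Δ, a difference of -0.99 ± 0.20 (SE; limma's adjusted p = 0.0243). SPATRNASER.02, with 1 probe, read 0.48 and 0.42 against -0.48 and -0.35, a difference of -0.87 ± 0.19 (SE; limma's adjusted p = 0.0295). In both genes the rif1Δ rad3Δ mean was called below the array median.

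SPATRNAILE.01, with 1 probe, read 1.08 and 1.22 in rif1Δ and 0.26 and 0.43 in rif1Δ rad3Δ, a difference of -0.81 ± 0.20 (SE; limma's adjusted p = 0.0391). SPBTRNAPHE.03 read 0.15 and 0.27 against -0.46 and -0.57, a difference of -0.73 ± 0.19 (SE; limma's adjusted p = 0.0487). The strains did not overlap at any of the 4 genes. The calls of the last 3 were lost whichever array was left out, and that of SPBTRNAPRO.04 without replicate 2 of either strain; over these and the other settings its difference stayed between -1.29 and -0.86. Over the alternative settings, SPBTRNAPRO.04 was called in 19 of 21, SPATRNASER.02 and SPATRNAILE.01 in 13 of 20 each and SPBTRNAPHE.03 in 11 of 21. The last 3 calls also ended with margins of 500 bp or without dye normalization; the difference of SPATRNAILE.01 was then -0.16 and -0.50, and that of SPATRNASER.02 was -0.43 after normexp. Just outside the threshold, SPCTRNALYS.12 had a difference of 0.85 (adjusted p = 0.051) and SPCTRNASER.07 one of 0.67 (adjusted p = 0.0576).

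Relative to their own flanks, 4 genes were lower in rif1Δ rad3Δ (0.301% of windows) and 0 were higher (1.55%), and 29 (9.34% of windows) and 4 (10.7%) were so at an unadjusted p below 0.05. They were SPATRNAILE.01, the alanine tRNA genes SPATRNAALA.03 and SPBTRNAALA.07, and the glutamate tRNA gene SPBTRNAGLU.08; apart from SPATRNAILE.01 and SPBTRNAALA.07 they were named after their values were seen. SPBTRNAGLU.08 stood 0.61 and 0.76 above its flanks in rif1Δ and was at -0.85 and -0.68 in rif1Δ rad3Δ (difference -1.44, limma's adjusted p = 0.0257). Its own level was called above the array median in both strains, at 0.82 and 0.51.

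**Figure D3:**
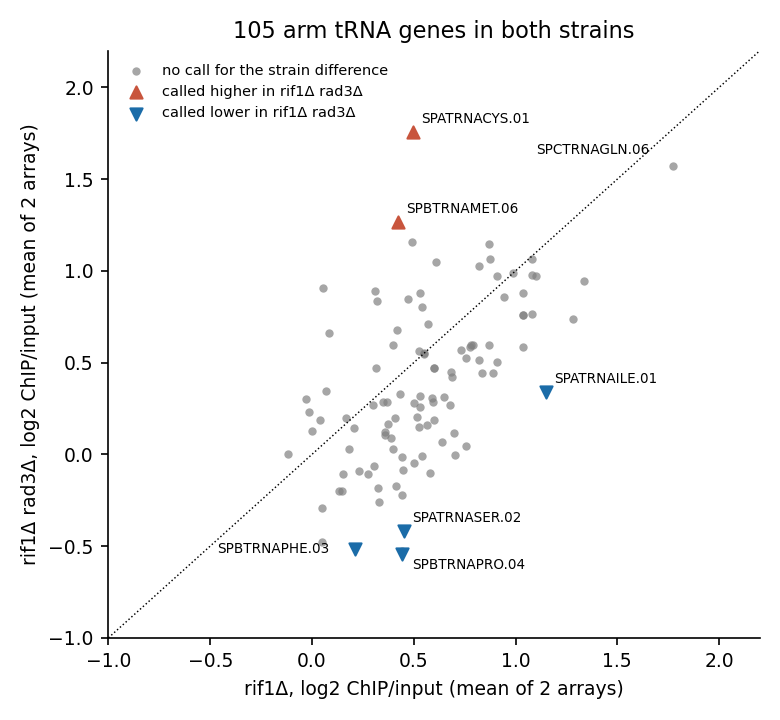
Mean level of each of the 105 tRNA genes in rif1Δ (horizontal) and in rif1Δ rad3Δ (vertical), both as log2 ChIP over input over 2 arrays, with the dotted line at equal levels. Triangles are the 6 genes called different, 2 above and 4 below the line, and 76 of the 105 genes lie below it.

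Levels were also set out by amino acid. Asparagine tRNA genes had the highest median of rif1Δ, 0.88 over 6 genes with 5 called above, followed by methionine with 0.75 over 5 genes and 3 called. One of the 6, SPCTRNAASP.08, is annotated with an asparagine product, but its name says aspartate and its sequence is that of the aspartate tRNA gene SPBTRNAASP.04. Without it the 5 asparagine genes had a median of 1.08 in rif1Δ and all 5 were called. The windows of SPBTRNAASN.02, SPBTRNAASN.04 and SPCTRNAASN.06 each overlap a gene of 5S rRNA, a small ribosomal RNA. In rif1Δ those 5S genes read 1.12 and 1.19, 1.13 and 1.32, and 1.10 and 0.65, in that order. The part of these neighbours in the asparagine levels was not tested.

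In rif1Δ rad3Δ, all 5 methionine tRNA genes were called above, with a median of 0.76. Of these, SPATRNAMET.01 and SPCTRNAMET.07 have the same values as the serine tRNA genes next to them, SPATRNASER.01 and SPCTRNASER.11. Those readings count in both groups, and the median of 0.76 is the value of SPATRNAMET.01. The 3 cysteine tRNA genes had the highest median of that strain, 1.06, with 2 called. Glutamate tRNA genes had 0.70 in rif1Δ and -0.00 in rif1Δ rad3Δ, and alanine tRNA genes 0.57 and 0.06. Of 9 proline tRNA genes 4 were called in each strain, led in both by SPATRNAPRO.03 at 0.99. Each of the 2 probes of SPATRNAPRO.03 was not well above background on at least 1 array. Its input lay far below the array median, at -3.68 and -2.80 in rif1Δ and -4.04 and -3.19 in rif1Δ rad3Δ. Its ChIP signal was -2.25 and -2.31 in rif1Δ and -2.90 and -2.38 in rif1Δ rad3Δ.

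At the low end, valine tRNA genes had medians of 0.09 and 0.08 over 4 genes, with SPATRNAVAL.01 as the highest at 0.89 and 0.44. Leucine tRNA genes had 0.14 in rif1Δ and 0.34 in rif1Δ rad3Δ over 7 genes, though SPBTRNALEU.09 reached 1.04 in rif1Δ. Of the 8 lysine tRNA genes 0 were called above in rif1Δ and 1 in rif1Δ rad3Δ, with medians of 0.46 and 0.20. The highest genes of other amino acids were SPATRNAARG.01 (0.95 in rif1Δ), SPATRNATHR.01 (1.04), SPBTRNAGLY.09 (0.87) and SPCTRNAPHE.04 (0.78). In rif1Δ rad3Δ they included SPBTRNAGLY.06 with 1.03, SPATRNAALA.01 with 0.89, SPATRNAPHE.01 with 0.88 and SPATRNATRP.01 with 0.84. The groups hold 1 to 10 genes, and no test was made between them.

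**Figure D4:**
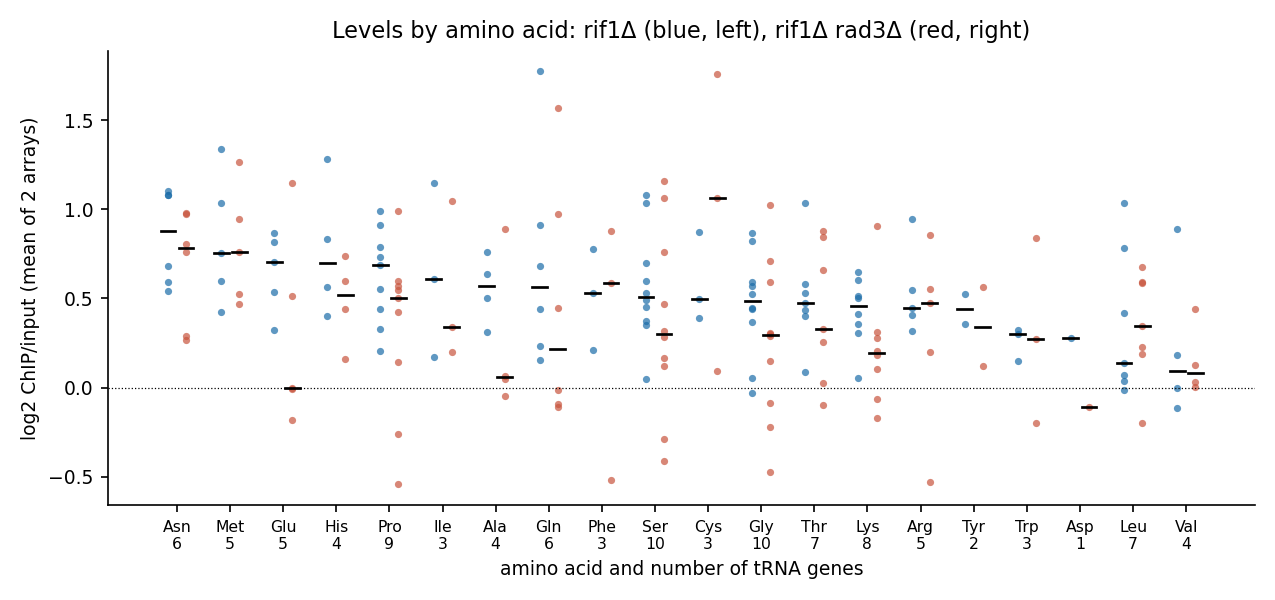
Mean level of every tRNA gene by the amino acid of its annotated product, with the number of genes under each name, as log2 ChIP over input over 2 arrays. Blue points are rif1Δ and red points rif1Δ rad3Δ, black bars are group medians, and groups are ordered by the rif1Δ median from asparagine (0.88) to valine (0.09).

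Genes with the same sequence differed in level. The SD within families of identical genes, pooled over families, was 0.32 in rif1Δ and 0.50 in rif1Δ rad3Δ. Over all 105 genes the SD was close to these, 0.33 and 0.46. The median SD between replicates was 0.20 in each strain, but a median of SDs is not comparable with a pooled SD. SPCTRNAGLN.06 and SPCTRNAGLN.05 have identical sequences, yet the latter read 0.02 and 0.29 in rif1Δ and -0.20 and -0.01 in rif1Δ rad3Δ. All 4 of its values lie below those of SPCTRNAGLN.06.

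SPATRNASER.02 shares its sequence with 4 other arm genes, among them SPCTRNASER.07. The first fell between the strains as given above, and the second read 0.45 and 0.53 in rif1Δ and 1.13 and 1.19 in rif1Δ rad3Δ, a difference of 0.67 that missed the threshold. The other 3 of that sequence, SPBTRNASER.05, SPCTRNASER.08 and SPCTRNASER.12, had differences of -0.07, -0.21 and -0.34. SPBTRNAPRO.04 shares its sequence with SPATRNAPRO.03, which read 1.45 and 0.53 in rif1Δ and 1.15 and 0.83 in rif1Δ rad3Δ, and with 4 more whose differences were -0.06 to -0.27. SPATRNAILE.01 is identical to SPCTRNAILE.09, which stood at 0.17 and 0.20. These family mates were named for their sequence, after their values were seen.

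**Figure D5:**
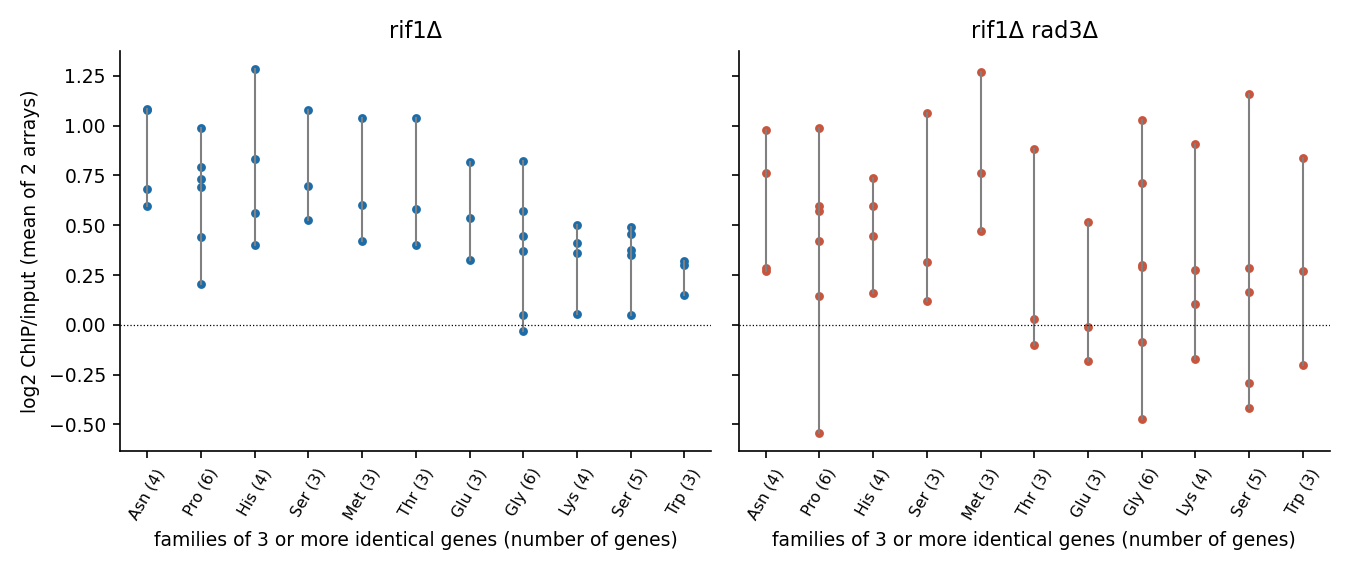
Levels of the genes in the 11 families of 3 or more identical tRNA genes, as log2 ChIP over input over 2 arrays, in rif1Δ (left) and rif1Δ rad3Δ (right); grey lines join the lowest and highest gene of a family. The proline family spans 0.21 to 0.99 in rif1Δ and -0.54 to 0.99 in rif1Δ rad3Δ.

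With genes less than 2 kb apart joined, 15 genes lay in 7 clusters and had a median of 0.53, against 0.52 for the 90 single genes. In rif1Δ rad3Δ the medians were 0.15 and 0.32, and 13 of the 15 clustered genes had a lower mean there than in rif1Δ, as did 63 of the 90. The largest cluster holds the glutamine tRNA genes SPBTRNAGLN.01, SPBTRNAGLN.02 and SPBTRNAGLN.03 on chromosome II, 382 and 868 bp apart. Their means were 0.23, 0.44 and 0.68 in rif1Δ and -0.09, -0.01 and 0.45 in rif1Δ rad3Δ, and only the last in rif1Δ rad3Δ was called above (limma's adjusted p = 0.0497).

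Pairs of a serine and an initiator methionine tRNA gene, 7 bp apart, lie on chromosome I and on chromosome III. The pair on chromosome I, SPATRNASER.01 and SPATRNAMET.01, stood at 1.04 in rif1Δ and 0.76 in rif1Δ rad3Δ. The one on chromosome III, SPCTRNASER.11 and SPCTRNAMET.07, stood at 0.60 and 0.47. The cluster of SPBTRNAGLY.05 and SPBTRNAARG.04 had the lowest mean of the 7 clusters in rif1Δ rad3Δ, -0.38, against 0.44 in rif1Δ.

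By chromosome, the medians of rif1Δ were 0.52, 0.53 and 0.53 on chromosomes I, II and III. Those of rif1Δ rad3Δ were 0.53, 0.28 and 0.30. In that strain 35 of the 41 genes of chromosome II had a lower mean, against 23 of 38 on chromosome I. The share of tiles by chromosome was not computed. Genes on the plus strand of the reference had medians of 0.59 and 0.42, with 23 of 61 called in rif1Δ, and genes on the minus strand 0.45 and 0.29, with 7 of 44 called. Genes touched by a probe had 0.60 in rif1Δ and the others 0.42. The 29 genes with a probe not well above background had medians of 0.60 in rif1Δ and 0.60 in rif1Δ rad3Δ, with 10 and 17 called above. The 76 others had 0.50 and 0.29, with 20 and 29 called above. Across genes, A+T content of the window correlated with the level at r = 0.07 in rif1Δ and 0.24 in rif1Δ rad3Δ. For A+T content of the gene alone r was -0.25 and -0.15. For the distance to the nearest A+T-rich island (merged 500 bp stretches of at least 75% A+T) it was -0.31 and -0.22. The 33 genes within 1000 bp of an island had medians of 0.58 and 0.45, and the 72 others 0.51 and 0.30. None of these splits was tested.

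Other genes transcribed by RNA polymerase III were read in the same way. The 32 genes of 5S rRNA, the small ribosomal RNA, had medians of 0.64 and 0.61, and the 16 of 48 centromeric tRNA genes with a probe had 0.63 and 0.34. The U6 RNA gene snu6 stood at 0.24 and 0.37. For comparison, 61 genes of snRNAs and snoRNAs, most of them made by another polymerase, had 0.47 and 0.39. Some 5S rRNA genes lie partly inside tRNA windows, such as those of SPBTRNAASN.02 and SPBTRNAHIS.01, so these classes are not fully separate. No test was made between the classes.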

How the data were processed

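Rad52 ChIP and input DNA shared each of 4 Agilent tiling arrays (2 colours, probes of 60 bases). Per the labels, input was Cy5 and ChIP Cy3. Per the submitters' processing notes, they were read with Agilent Feature Extraction 10.7.3.1. The deposited intensity values used are the processed signals, background-subtracted and dye-normalized per the file headers; median spot intensities served for alternatives. The deposited log10 ratio served to check direction. The value table deposited by the authors gives the linear ratio Cy3 over Cy5, uncentred, with column medians of 0.985, 1.01, 0.968 and 1.01. It matched the processed signals in scale and in the direction Cy3 over Cy5. That Cy3 was ChIP on every array rests on the labels, as the series text speaks of reciprocal labelling.

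From these, log2 ChIP over input was computed and centred on each array's median over chromosomes I to III, with no loess or quantile step. Control spots (2513) and 93 probes flagged as outliers were left out. Probe values were averaged over each tRNA gene with 250 bp on either side and over 600 bp tiles outside those windows. All 16719 windows were fitted together with limma 3.58.1 (lmFit and eBayes, R 4.3.3) with a mean for each strain, each tested against 0 and against the other, and again after subtracting the mean of probes 1 to 3 kb from the window (16594 windows). Adjusted p-values are limma's, by Benjamini-Hochberg, with 0.05 as threshold. The scripts were tested on simulated data, for the strain difference with 200 of 16719 windows changed. Of simulated differences of 0.5 or 1 on the log2 scale 0% were recovered, and of those of 2, 62.4%. The number of arrays limits the precision.

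The array header names an older build than ASM294v3. Probe brightness correlated with the A+T content of the reference at an absolute r of 0.282 on chromosome I below 3703000, 0.289 on II and 0.296 on III, and at 0.0178 on chromosome I beyond the centromere. The prefix SPOM_ was dropped from gene names. Genes and groups were named by this rule: the 8 highest and 3 lowest of each strain, passing strain differences and those nearest to passing, the highest gene of each amino acid, the largest cluster, and the 3 largest over their flanks. Members, lists and alternatives were chosen with earlier results of these data known. The replicate numbers name the arrays; the labels do not say that they pair them.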

Additional observations from a re-analysis of the deposited data

Results flagged for a closer look

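The difference between the strains passed limma's test at 6 tRNA genes. Of all windows, 5.62% were called higher in rif1Δ rad3Δ and 2.92% lower. Of the tRNA genes, 1.9% were called higher and 3.81% lower. The share called higher was thus below that of all windows, and the share called lower was slightly above it. Rad52 ChIP over input was higher in rif1Δ rad3Δ at SPATRNACYS.01, by 1.26 on the log2 scale, and at SPBTRNAMET.06, by 0.85. It was lower at SPBTRNAPRO.04 (difference -0.99), SPATRNASER.02 (-0.87), SPATRNAILE.01 (-0.81) and SPBTRNAPHE.03 (-0.73). At each gene the arrays of the strains did not overlap, as at 29.6% (higher) and 30.5% (lower) of all windows. The genes were picked by a test on the same arrays, so this is no separate evidence. SPATRNACYS.01, SPATRNASER.02 and SPATRNAILE.01 rest on 1 probe each, and that of SPATRNACYS.01 was dim. SPATRNASER.02 has the same gene sequence as SPCTRNASER.07, whose difference was 0.67 and did not pass.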

How the results depend on the processing

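Counts below are tRNA genes past limma's threshold, and levels are log2 medians. A percentage after a count is the share of all windows called under the same setting. Of the named genes, 2 had a sign turned where the value was called in either setting: SPATRNASER.02 in rif1Δ rad3Δ was 0.01 after normexp, and SPBTRNAASP.04 was 0.66 with 1 kb bins. The count above the array median in rif1Δ was 17 with 500 bp margins (2.63%) and 52 with arrays scaled to one spread (5.52%). It was 72 with the replicate block (8.45%). For rif1Δ rad3Δ it was 25 after normexp (12.4%), and the count below was 2 with one spread (13.0%) and 8 with 1 kb bins (23.8%). The count higher in rif1Δ rad3Δ was 0 with mode centring (3.46%), normexp (2.15%) or one spread (1.54%). It was also 0 with the A+T trend over 500 bp removed (3.1%), chosen after seeing the data. It was 4 with loess (7.89%), without dye normalization (7.49%) or with windows of all annotated genes (12.8%). With 1 kb bins it was 5 (10.7%) and with the replicate block 7 (14.5%). The count lower was 1 with 500 bp margins (2.95%), 2 without dye normalization (3.76%) and 7 with loess (5.5%). It was 9 with the A+T trend of probes removed (3.85%) or with all annotated genes (7.66%), and 19 with the replicate block (12.1%). Above their own flanks in rif1Δ there were 4 with 500 bp margins (0.806%), 12 without dye normalization (0.777%) and 31 with an intensity trend (1.48%). There were 34 with the A+T trend of probes removed (1.56%), 35 with loess (1.96%), 45 with one spread (2.89%) and 64 with the replicate block (6.79%). For rif1Δ rad3Δ there were 11 with one spread (6.14%) or with the A+T trend over 500 bp removed (9.0%). There were 12 after normexp (8.74%), 29 with loess (14.8%) and 39 with the replicate block (19.9%). The replicate block rests on 2 pairs that the labels do not declare; deviations of the same-numbered arrays correlated at 0.32. The median level in rif1Δ was 0.55 with mode centring, 0.48 with loess, 0.49 after normexp, 0.38 without dye normalization, 0.63 with one spread, 0.47 with probes well above background, 0.37 with 500 bp margins and 0.34 with 1 kb bins. The median strain difference was -0.05 with 500 bp margins, -0.07 with 1 kb bins, -0.36 with the A+T trend over 500 bp removed and -0.40 with one spread. With the gene alone, 2 genes have a probe midpoint. Of these, 2 were above in rif1Δ (2.55%) and 2 in rif1Δ rad3Δ (20.9%), with 0 below in the latter (19.8%). Between the strains 0 were higher (5.7%) and 0 lower (2.95%). Above their flanks were 2 in rif1Δ (0.764%) and 0 in rif1Δ rad3Δ (11.7%). The medians were 1.31, 0.58 and -0.73.

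Leaving out 1 array at a time gave 17 to 38 genes above in rif1Δ, 24 to 49 above and 0 to 5 below in rif1Δ rad3Δ, 0 to 3 higher and 0 to 6 lower between strains, and 10 to 24 and 8 to 24 above their flanks. The medians ranged from 0.52 to 0.55, from 0.25 to 0.49 and from -0.29 to -0.09. The causes were not tested. A random block for the slide could not be estimated and was not run, and own flanks were not run for 1 kb bins, all annotated genes or merged loci. The number of arrays and 1 to 3 probes a gene limit the precision.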
